A study of Arabidopsis thaliana with 12 samples.

Results

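Thionins and thaumatin-like proteins are small secreted defence proteins, and 4 Arabidopsis thaliana genes of these families, THI2.1, THI2.2, ATLP-1 and OSM34, were followed in shoot apices over the first 4 long days. All probe sets that the platform annotation paired with 1 of these genes alone were taken, which gave 6 of the 8247 probe sets that are not controls. They belong to 4 of the 3593 genes that had a probe set of their own. THI2.1 (AT1G72260) had 3 probe sets, 14656_i_at, 14657_s_at and 17012_at. THI2.2 (AT5G36910), ATLP-1 (AT1G18250) and OSM34 (AT4G11650) had 1 each, 17517_at, 17070_at and 16914_s_at. The genes had been chosen by their course over the days in these same arrays, so their differences between days are given as a description, with no test. All 6 probe sets lay above the limit for low values, a mean over the arrays of 3.56 (log2), and entered the fits.

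Thionins are short cysteine-rich peptides held together by disulphide bonds, and they are known for their toxicity to fungi and bacteria. In Arabidopsis, THI2.1 is a classical jasmonate-responsive thionin gene that is also expressed in flowers, while THI2.2 is known mainly from vegetative tissue. Thaumatin-like proteins are the fifth class of pathogenesis-related proteins and include osmotin, which was first described in salt-adapted tobacco cells. OSM34 encodes an Arabidopsis osmotin-like protein and ATLP-1 another thaumatin-like protein.

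RNA from shoot apices was measured on 12 oligonucleotide arrays, 1 for each of 4 genotypes on days 0, 2 and 4. All plants had a Col-0 background and grew at 21 °C for 30 days in short days, with 9 h of light and 15 h of darkness. They then moved to long days with 16 h of light and 8 h of darkness. FRI(Sf-2)-FLC(Col) carries an active FRIGIDA (FRI) allele introgressed from accession Sf-2 and an intact FLOWERING LOCUS C (FLC). FRI(Sf-2)-flc-3 carries the same FRI allele with the FLC deletion flc-3. In fri(Col)-flc-3 the deletion is combined with the FRI allele of Col-0. fri(Col)-FLC(Col) is the Col-0 wild type. FLC represses flowering and is raised by active FRI; the FRI allele of Col-0 is inactive. The sources used here do not give the number of plants per sample or the hour of harvest, and no sample is from plants kept in short days after day 0. Long days, plant age and harvest occasion therefore cannot be told apart. In whole apices, fewer cells of a type and less RNA per cell cannot be told apart either.

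Of the shoot apex markers looked for, only YAB3 and PHV, organ polarity genes, had probe sets of their own. PHV measured 7.93 to 8.47 and 2 YAB3 probe sets 7.86 to 9.27, while another YAB3 probe set lay below the limit for low values on all arrays. Rubisco activase (RCA), a leaf gene, measured 10.4 to 11.2. PHV and 1 YAB3 probe set rose by 0.29 each between days 0 and 4 (limma adjusted p = 0.0435 and 0.0171), where 8.78% of all tested probe sets rose. The other tested YAB3 probe set measured 0.24 without passing (limma adjusted p = 0.143). RCA fell by 0.47 between days 2 and 4 (limma adjusted p = 0.0301), where 2.72% of all tested probe sets fell. The part of these marker genes in the day courses of THI2.1, THI2.2, ATLP-1 and OSM34 was not tested. No probe set was found for FLC or FRI, for the root markers or for the flower organ markers. The FRI(Sf-2)-flc-3 day 2 array stood apart in its BioB hybridisation controls, at 9.53 against 7.13 to 7.79 on the other 11 arrays, and in its residual spread, at 0.165 against 0.0969 to 0.132. The main values that rest on that array are therefore also given without it.

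THI2.1 was the member with the steepest increase. On its probe set 17012_at, FRI(Sf-2)-FLC(Col) measured 6.78, 7.77 and 10.37 (log2) on days 0, 2 and 4. FRI(Sf-2)-flc-3 measured 6.71, 8.08 and 9.42. In fri(Col)-flc-3 the values were 6.60, 8.62 and 8.76, and in fri(Col)-FLC(Col) they were 6.18, 8.34 and 10.25. The 3 days did not overlap: every day 2 array lay above every day 0 array, and every day 4 array above every day 2 array. Averaged over the genotypes the level was 6.57 ± 0.27 on day 0, 8.20 ± 0.36 on day 2 and 9.70 ± 0.76 on day 4 (SD, n = 4 genotypes). The fitted difference between day 4 and day 0 was 3.14 ± 0.31 (SE, log2), or 8.79-fold. It ranked 1 among 6185 tested probe sets, from the largest increase down. Day 2 exceeded day 0 by 1.64 ± 0.31, which ranked 7.

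The size of the THI2.1 increase differed between genotypes in its second step. From day 2 to day 4, 17012_at gained 2.61 in FRI(Sf-2)-FLC(Col), 1.34 in FRI(Sf-2)-flc-3 and 1.92 in fri(Col)-FLC(Col), but 0.14 in fri(Col)-flc-3. On day 4 the genotypes therefore stood in the order FRI(Sf-2)-FLC(Col), fri(Col)-FLC(Col), FRI(Sf-2)-flc-3 and fri(Col)-flc-3, so that both lines with intact FLC lay above both lines with the deletion. On day 2 the order was another one, with fri(Col)-flc-3 highest and FRI(Sf-2)-FLC(Col) lowest. The day 4 order was the same on 14657_s_at but not on 14656_i_at, where fri(Col)-flc-3 measured 5.09 and FRI(Sf-2)-FLC(Col) 4.90. How many of all tested probe sets had both lines with intact FLC on top on day 4 was not counted. Each of these positions rests on 1 array, and the difference between the orders was not tested.

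**Figure D1:**
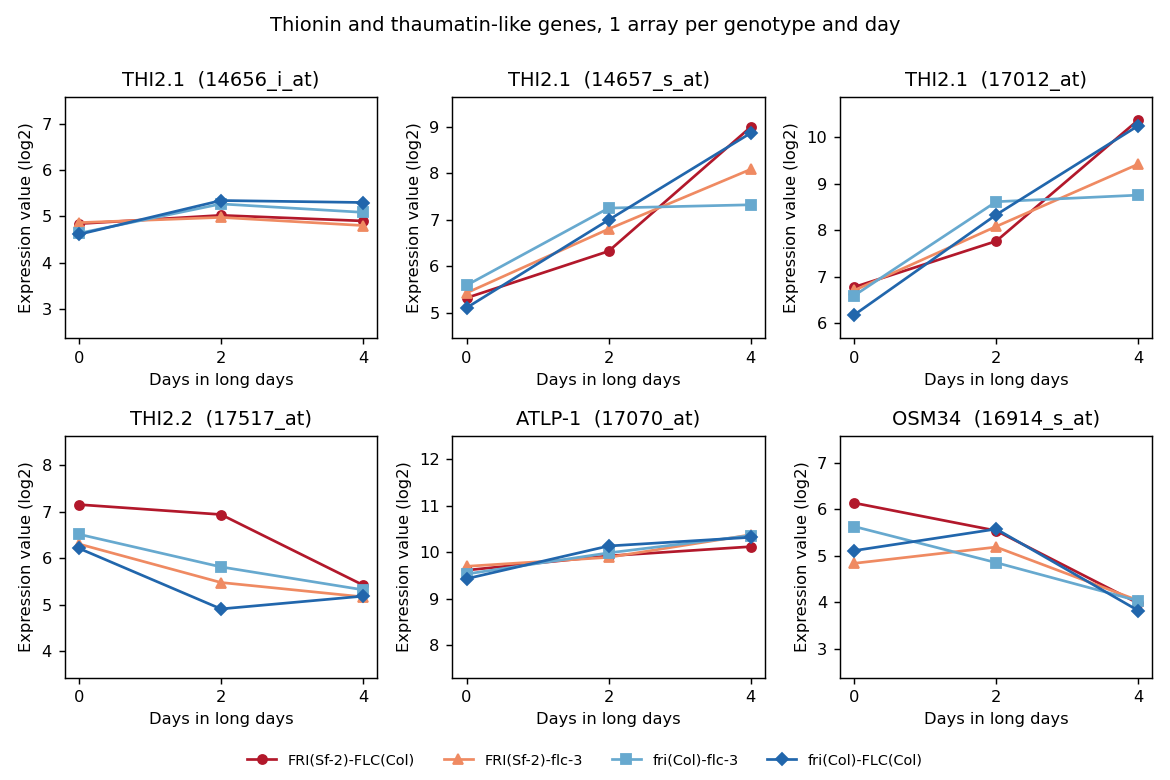
Expression value (log2, vertical axis) of the 6 probe sets against days in long days (horizontal axis), with 1 line per genotype and 1 array per point; all panels span the same range. THI2.1 climbs on 14657_s_at and 17012_at and stays near 5 on 14656_i_at, ATLP-1 climbs from about 9.57 to 10.29 on average, and THI2.2 and OSM34 end lower on day 4 than on day 0 in each genotype.

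The probe set 14657_s_at gave the same course. It measured 5.32, 6.32 and 8.99 on days 0, 2 and 4 in FRI(Sf-2)-FLC(Col). The values were 5.43, 6.80 and 8.09 in FRI(Sf-2)-flc-3, 5.59, 7.25 and 7.32 in fri(Col)-flc-3, and 5.11, 6.996 and 8.86 in fri(Col)-FLC(Col). Here too the days did not overlap, and fri(Col)-flc-3 gained least from day 2 to day 4, by 0.07. The fitted difference between day 4 and day 0 was 2.96 ± 0.32 (SE, log2), or 7.76-fold, which ranked 2 of 6185. Over the 12 arrays 17012_at lay above 14657_s_at by 1.32 ± 0.14 (SD), between 1.01 and 1.46. Pearson r between them was 0.996 over the 12 arrays, which share the RNA and the hybridisation. After each day's mean was taken off, r was 0.969, so the departures of single genotypes from their day also matched.

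The probe set 14656_i_at did not follow the other THI2.1 probe sets. It measured 4.84, 5.02 and 4.90 on days 0, 2 and 4 in FRI(Sf-2)-FLC(Col) and 4.87, 4.98 and 4.80 in FRI(Sf-2)-flc-3. In fri(Col)-flc-3 it measured 4.64, 5.27 and 5.09, and in fri(Col)-FLC(Col) 4.61, 5.34 and 5.30. All 12 values lay within 0.73 of each other, against a range of 4.19 for 17012_at. Its day 2 arrays still lay above all day 0 arrays, but days 0 and 4 overlapped. The increase from day 0 to day 2 was 0.63 and 0.73 in the lines with the Col FRI allele, and 0.18 and 0.11 in those with the Sf-2 allele. The other THI2.1 probe sets also gained more by day 2 with the Col allele (2.02 and 2.15 against 0.99 and 1.38 on 17012_at). So did ATLP-1 (0.45 and 0.70 against 0.31 and 0.19), so this split was not particular to THI2.1. Each step rests on single arrays, among them the FRI(Sf-2)-flc-3 day 2 array that stood apart. The difference between the alleles was not tested, and its share among all probe sets was not counted. The fitted difference of 14656_i_at was 0.41 ± 0.12 (SE) between day 2 and day 0 and 0.28 ± 0.12 between day 4 and day 0. Pearson r with 17012_at over the 12 arrays was 0.564, and with 14657_s_at 0.529. The annotation credits 14656_i_at and 14657_s_at to the same sequence record, and 17012_at to another. On arrays of this kind the suffix i marks a set with fewer probes than usual and the suffix s a set whose probes can match more than one transcript. Whether this bears on the flat course of 14656_i_at was not tested.

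**Figure D2:**
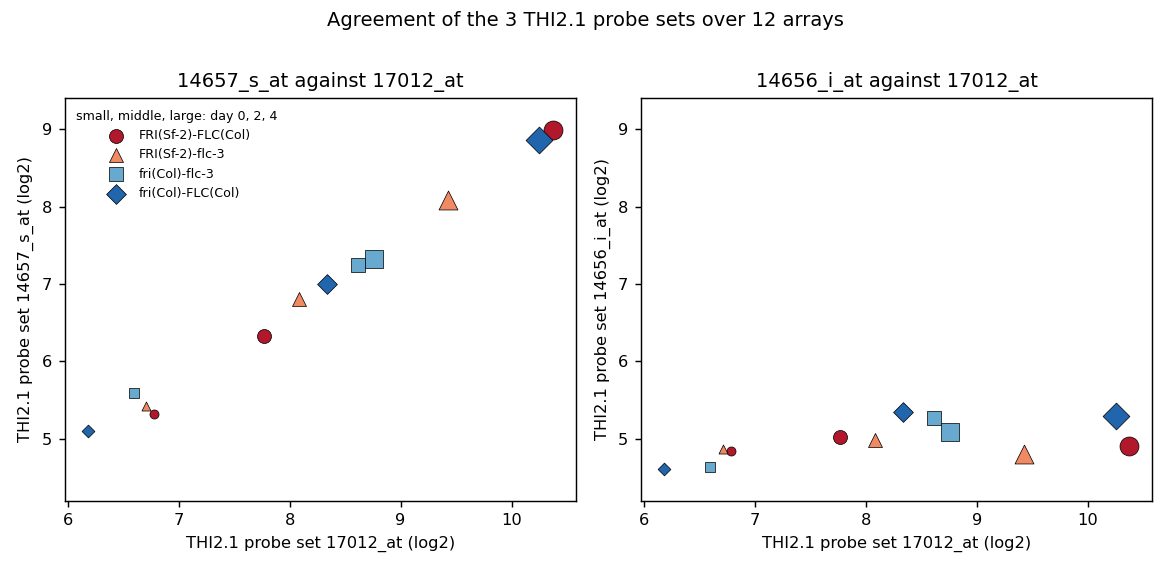
THI2.1 probe sets 14657_s_at (left) and 14656_i_at (right) on the vertical axis against 17012_at on the horizontal axis (all log2), with 1 point per array, colour and shape for genotype and size for day. The left panel follows a line 1.32 below 17012_at on average, while the right panel stays between 4.61 and 5.34.

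THI2.2, the relative of THI2.1 on this array, took the opposite course. It measured 7.15, 6.94 and 5.42 on days 0, 2 and 4 in FRI(Sf-2)-FLC(Col). The values were 6.30, 5.47 and 5.17 in FRI(Sf-2)-flc-3 and 6.51, 5.81 and 5.32 in fri(Col)-flc-3. In fri(Col)-FLC(Col) they were 6.21, 4.91 and 5.18. All day 4 arrays lay below all day 0 arrays, while day 2 overlapped with both. The level was 6.54 ± 0.42 on day 0, 5.78 ± 0.86 on day 2 and 5.27 ± 0.12 on day 4 (SD, n = 4 genotypes). The fitted difference between day 4 and day 0 was -1.27 ± 0.20 (SE, log2), or 2.42-fold lower on day 4, and between day 2 and day 0 it was -0.76 ± 0.20.

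The timing of the THI2.2 decrease varied more than its end. In fri(Col)-FLC(Col) THI2.2 dropped by 1.304 to its lowest value by day 2 and gained 0.27 afterwards. In FRI(Sf-2)-FLC(Col) it dropped by 0.21 up to day 2 and then dropped by 1.52 up to day 4. The remaining 2 lines lay between these courses. The genotypes thus spread over 2.03 log2 units on day 2 and over 0.25 on day 4. Each of these values rests on a single array, and the difference in timing between genotypes was not tested.

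ATLP-1 had the most even course of the members. It measured 9.61, 9.92 and 10.12 on days 0, 2 and 4 in FRI(Sf-2)-FLC(Col) and 9.70, 9.89 and 10.37 in FRI(Sf-2)-flc-3. In fri(Col)-flc-3 it measured 9.53, 9.99 and 10.36, and in fri(Col)-FLC(Col) 9.43, 10.13 and 10.32. Each genotype increased in each step, with no overlap between day 0 and either later day and a small overlap between days 2 and 4. The mean was 9.57 ± 0.11 on day 0, 9.98 ± 0.11 on day 2 and 10.29 ± 0.12 on day 4 (SD, n = 4 genotypes). The fitted difference between day 4 and day 0 was 0.73 ± 0.087 (SE, log2), or 1.65-fold, and between day 2 and day 0 it was 0.42 ± 0.087. ATLP-1 and THI2.1 (mean of its probe sets) had a Pearson r of 0.890 over the 12 arrays.

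OSM34, of the same family as ATLP-1, was lower on day 4. It measured 6.14, 5.54 and 3.98 on days 0, 2 and 4 in FRI(Sf-2)-FLC(Col) and 4.84, 5.19 and 4.04 in FRI(Sf-2)-flc-3. The values were 5.63, 4.85 and 4.03 in fri(Col)-flc-3, and 5.11, 5.58 and 3.82 in fri(Col)-FLC(Col). Every day 4 array lay below every array of days 0 and 2, which overlapped with each other. The mean was 5.43 ± 0.58 on day 0, 5.29 ± 0.34 on day 2 and 3.97 ± 0.10 on day 4 (SD, n = 4 genotypes). The fitted difference between day 4 and day 0 was -1.46 ± 0.21 (SE, log2), or 2.76-fold lower on day 4. Almost all of it lay between days 2 and 4, where the difference was -1.32 ± 0.21. Between day 2 and day 0 it was -0.14 ± 0.21, with steps of -0.60 in FRI(Sf-2)-FLC(Col), 0.35 in FRI(Sf-2)-flc-3, -0.78 in fri(Col)-flc-3 and 0.46 in fri(Col)-FLC(Col). The day 4 values lie close to the limit for low values, 3.56.

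Both families thus held 1 member that was higher and 1 that was lower on day 4. Of the 6 probe sets, 3 lay above on all 4 day 4 arrays compared with all day 0 arrays (14657_s_at and 17012_at of THI2.1, and ATLP-1), where 14.4% of all tested probe sets did. THI2.2 and OSM34, 2 of the 6, lay below, where 11.4% of all tested probe sets did. On day 2, 4 of the 6 lay above all day 0 arrays (7.49% of all probe sets) and 0 below (7.41%). From day 2 to day 4, 2 of the 6 lay above (6.06%) and OSM34 below (3.64%). These counts follow from how the genes were chosen. Without the FRI(Sf-2)-flc-3 day 2 array, the fitted differences between day 2 and day 0 were 1.65 for 17012_at, 1.47 for 14657_s_at, 0.46 for 14656_i_at, -0.72 for THI2.2, 0.48 for ATLP-1 and -0.19 for OSM34.

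THI2.2 and OSM34 had a Pearson r of 0.675 over the 12 arrays, but their day courses differed in timing. By day 2 the mean difference was -0.76 for THI2.2 and -0.14 for OSM34. From day 2 to day 4 it was -0.51 and -1.32. Against THI2.1, r was -0.740 for THI2.2 and -0.759 for OSM34. Against ATLP-1 it was -0.760 for THI2.2 and -0.722 for OSM34. All 4 genes were read on the same arrays, and the days are common to them. The genes were chosen by their course over the days, so the signs of r follow from that choice.

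Genotype was not used in picking the genes, and its effects were tested in a model additive in genotype and day (limma, two-sided, with Benjamini-Hochberg adjustment over 6185 probe sets). THI2.2 was the member with the largest genotype differences. FRI(Sf-2)-FLC(Col) had the highest THI2.2 value on each of the 3 days, with 7.15 against 6.21 to 6.51 on day 0, 6.94 against 4.91 to 5.81 on day 2 and 5.42 against 5.17 to 5.32 on day 4. It was the only member probe set that lay above the other 3 genotypes on each day, which 4.2% of all tested probe sets did. The fitted difference to the mean of the other genotypes was 0.85 ± 0.19 (SE, log2), with a 95% interval of 0.44 to 1.26, or 1.80-fold. It did not pass the threshold of 0.05 (limma, unadjusted p = 0.000765, adjusted p = 0.0775). With array weights the limma adjusted p was 0.0261, and without the FRI(Sf-2)-FLC(Col) day 4 array 0.0249 with a difference of 1.17. Without the FRI(Sf-2)-FLC(Col) day 2 array the difference was 0.50 and the limma adjusted p 0.456, and without the FRI(Sf-2)-flc-3 day 2 array they were 0.83 and 0.109.

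Among the pairwise comparisons, the THI2.2 estimates were largest where FRI(Sf-2)-FLC(Col) was 1 of the lines, but none passed the threshold in the main fit. With the Sf-2 allele and intact FLC, THI2.2 was 1.07 ± 0.23 (SE, log2) above fri(Col)-FLC(Col), with a 95% interval of 0.56 to 1.58 (limma, unadjusted p = 0.000611, adjusted p = 0.158). By day this was 0.94, 2.03 and 0.24. Its limma adjusted p was 0.0369 with array weights and 0.0231 without the FRI(Sf-2)-FLC(Col) day 4 array; without the FRI(Sf-2)-FLC(Col) day 2 array the difference was 0.73 and the adjusted p 0.437. Without FLC, FRI(Sf-2)-flc-3 differed from FRI(Sf-2)-FLC(Col) by -0.86 ± 0.23, with a 95% interval of -1.36 to -0.35 (limma, unadjusted p = 0.00317, adjusted p = 0.178), and was lower on each of the 3 days, as were 18% of all tested probe sets. That difference was -0.51 without the FRI(Sf-2)-FLC(Col) day 2 array (limma adjusted p = 0.536) and -0.80 without the FRI(Sf-2)-flc-3 day 2 array (limma adjusted p = 0.395). In the Col FRI background the deletion line fri(Col)-flc-3 differed from fri(Col)-FLC(Col) by 0.45 ± 0.23, the other way (limma, unadjusted p = 0.078, adjusted p = 0.9999). This line was higher on each day, as were 11.2% of all tested probe sets. Without the fri(Col)-FLC(Col) day 2 array this difference was 0.15. The Sf-2 allele in the absence of FLC gave -0.23 ± 0.23, with an interval of -0.74 to 0.27, and -0.17 without the FRI(Sf-2)-flc-3 day 2 array. The effect of the FLC deletion with active FRI minus its effect with the Col allele was -1.303 ± 0.33, with an interval of -2.02 to -0.59 (limma, unadjusted p = 0.00189, adjusted p = 0.355). It was -1.24 without the FRI(Sf-2)-flc-3 day 2 array and -0.96 without the FRI(Sf-2)-FLC(Col) day 2 array.

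OSM34 showed a smaller difference of the same sign. FRI(Sf-2)-FLC(Col) exceeded the mean of the other genotypes by 0.43 ± 0.19 (SE, log2; limma, unadjusted p = 0.0471, adjusted p = 0.457). By day it was 0.94, 0.33 and 0.015. FRI(Sf-2)-FLC(Col) measured 6.14 against 4.84 to 5.63 on day 0, above all others. On day 2 it was 5.54 against 4.85 to 5.58, and on day 4 it was 3.98 against 3.82 to 4.04, within the range of the others. Without the FRI(Sf-2)-FLC(Col) day 0 array the difference was 0.17. FRI(Sf-2)-flc-3 differed from FRI(Sf-2)-FLC(Col) by -0.53 ± 0.24 (limma, unadjusted p = 0.0462, adjusted p = 0.409), and the same difference was -0.27 without the FRI(Sf-2)-FLC(Col) day 0 array and -0.60 without the FRI(Sf-2)-flc-3 day 2 array.

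**Figure D3:**
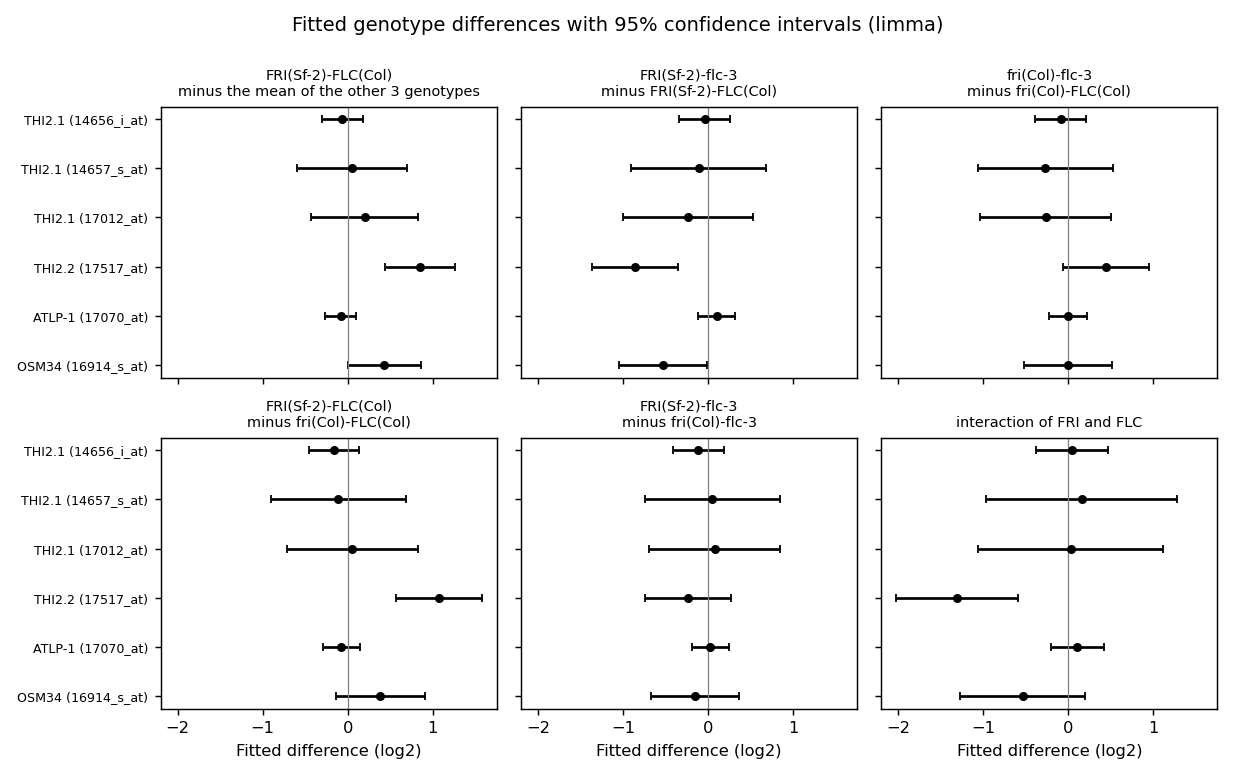
Fitted differences (log2, horizontal axis) of the 6 probe sets (rows) in 5 genotype comparisons and in the interaction of FRI and FLC, with points for estimates and bars for 95% confidence intervals from limma. The intervals of THI2.2 leave out 0 in 4 of the panels and those of THI2.1 and ATLP-1 include 0 in all 6; no difference passed the adjusted threshold.

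THI2.1 and ATLP-1 had no genotype difference past the threshold, and the intervals bound its size only as averaged over the 3 days. For 17012_at the fitted difference between FRI(Sf-2)-FLC(Col) and the mean of the others was 0.20 ± 0.29 (SE, log2), with a 95% interval of -0.43 to 0.83. Loss of FLC gave -0.23 ± 0.35 with active FRI, with an interval of -1.005 to 0.53, and -0.27 ± 0.35 with the Col allele, with an interval of -1.04 to 0.50. By day, loss of FLC with active FRI gave -0.07, 0.32 and -0.95 on 17012_at. With the Col allele it gave 0.42, 0.28 and -1.49, from 1 array per line and day. For the difference averaged over the days, ATLP-1 was known more closely. Its interval was -0.26 to 0.09 between FRI(Sf-2)-FLC(Col) and the mean of the others, -0.12 to 0.32 for loss of FLC with active FRI and -0.22 to 0.22 for loss of FLC with the Col allele.

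In limma 0 of the 6 member probe sets passed in any of the 7 genotype comparisons. The share of all tested probe sets that passed was 0.76% for FRI(Sf-2)-FLC(Col) against the mean of the others, 0.146% for FRI(Sf-2)-flc-3 against FRI(Sf-2)-FLC(Col) and 0.0162% for fri(Col)-flc-3 against fri(Col)-FLC(Col). It was 0.178% for FRI(Sf-2)-FLC(Col) against fri(Col)-FLC(Col), 0.0808% for FRI(Sf-2)-flc-3 against fri(Col)-flc-3 and 0.0323% for the interaction. At an unadjusted p under 0.05, 2 of the 6 passed in the first comparison, 2 in the second, 0 in the third, 1 in the fourth, 0 in the fifth and 1 in the interaction. Among all 6185 tested probe sets, 661, 729, 153, 425, 556 and 449 did so, in the same order.

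The day 4 response of FRI(Sf-2)-FLC(Col) was compared with that of the other genotypes in a second model that gave this line its own day terms. The difference between the responses was -0.93 ± 0.43 (SE, log2) for OSM34 and -0.61 ± 0.28 for THI2.2. It was 0.96 ± 0.61 for 14657_s_at and 0.61 ± 0.61 for 17012_at of THI2.1, and -0.29 ± 0.21 for ATLP-1. The remaining THI2.1 probe set, 14656_i_at, had the other sign, at -0.30 ± 0.28. Leaving out single arrays moved 14657_s_at between 0.46 and 1.42 and 17012_at between 0.16 and 1.08. In limma 0 of the 6 passed after adjustment, where 0.0162% of all tested probe sets did. At an unadjusted p under 0.05 in limma, 0 of the 6 passed as well, where 119 of all 6185 tested probe sets did. The 95% intervals were -1.88 to 0.02 for OSM34 and -1.24 to 0.02 for THI2.2.

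The other genes of both families were taken from a list of loci placed there from general knowledge, since the gene table names most of them by locus alone. In the thionin family, AT2G15010 was the only further gene with a probe set, and at 2.44 to 2.86 it lay below the limit for low values and was not tested. In the thaumatin-like family 10 further loci had a probe set, and 6 of these were tested. The untested ones were AT4G36000 (3.04 to 3.36), AT4G18250 (2.57 to 2.95), AT1G70250 (2.47 to 3.03) and AT2G17860 (3.35 to 4.005), whose means over the arrays lay below the limit for low values. Between day 4 and day 0, 3 of the 6 rose and 2 fell in limma, where 8.78% of all tested probe sets rose and 9.49% fell. Their median difference was 0.15, and that of all tested probe sets 0.04. As with ATLP-1 and OSM34, relatives in this family thus changed in both directions.

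AT4G38660 rose by 0.46 ± 0.094 (SE, log2; limma adjusted p = 0.00477) by day 4. Its day 4 arrays read 9.61 in FRI(Sf-2)-FLC(Col), 9.89 in FRI(Sf-2)-flc-3, 9.77 in fri(Col)-flc-3 and 9.76 in fri(Col)-FLC(Col), all above the day 0 values of 9.21 to 9.42. AT4G38670, its direct neighbour among protein-coding genes, rose by 0.30 ± 0.087 (limma adjusted p = 0.0299). AT2G28790 rose by 0.29 ± 0.079 (limma adjusted p = 0.0227). Between days 2 and 4 AT4G38660 rose by 0.39 (limma adjusted p = 0.0391, held in 8 of 19 alternative settings). Of the day 4 against day 0 rises only that of AT4G38660 held in all 19 alternative settings. That of AT2G28790 held in 12 and that of AT4G38670 in 11, with limma adjusted p-values of up to 0.0976 and 0.117.

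AT1G75800 fell by 0.63 by day 2 (SE 0.085; limma adjusted p = 0.000588), and its difference between day 4 and day 0 was -0.50 ± 0.085 (limma adjusted p = 0.00142). Its day 0 arrays lay at 8.18 to 8.32, above all later arrays, which lay at 7.55 to 7.91. It was the only 1 of the 6 relatives called on day 2, where 4.8% of all tested probe sets rose and 5.89% fell. AT4G36010 fell by 0.48 by day 4 (SE 0.10; limma adjusted p = 0.00661), with day 4 minus day 0 values of -0.69 to -0.53 in 3 lines and -0.048 in fri(Col)-FLC(Col). Both calls held in all 19 alternative settings. AT2G24810, the last of the 6, did not pass and stayed at 3.87 to 4.17.

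**Figure D4:**
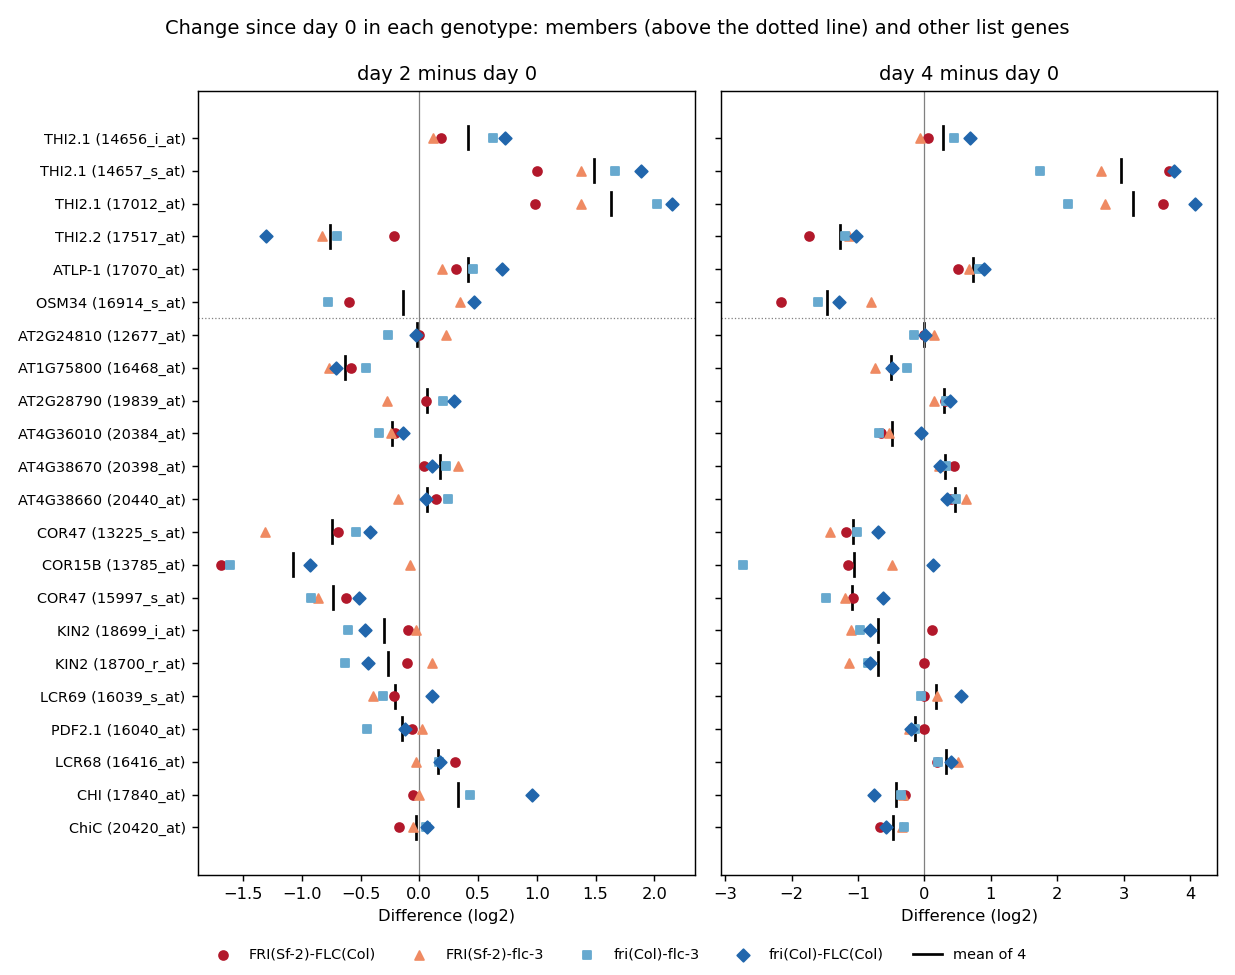
Difference from day 0 (log2, horizontal axis) on day 2 (left) and day 4 (right) for the 6 member probe sets above the dotted line and the 16 tested probe sets of the other list genes below it; points are genotypes with 1 array per day and black bars the mean of the 4. The largest increases are those of THI2.1, and OSM34, THI2.2, COR47, COR15B and KIN2 have the lowest means on day 4.

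None of the 6 thaumatin-like relatives passed in a genotype comparison in limma, and their medians lay between -0.12 and 0.05 over the 5 pairwise or pooled comparisons.

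Osmotic stress and abscisic acid genes were looked at because osmotins are known as osmotic stress proteins. Only 3 of 18 listed genes had probe sets, COR47, COR15B and KIN2, with 5 probe sets in all. By day 4, 4 of the 5 fell and 0 rose, with a median difference of -1.06, where 9.49% of all tested probe sets fell and 8.78% rose. The 4 were 2 probe sets each of COR47 and KIN2, so they stand for 2 genes. The dehydrin gene COR47 fell by 1.08 on one of its 2 probe sets and fell by 1.096 on the other (limma adjusted p = 0.000115 and 3.66e-05). KIN2, a cold-induced gene, fell by 0.70 on both of its probe sets (limma adjusted p = 0.0161 and 0.0154), without a decrease in FRI(Sf-2)-FLC(Col), where the day 4 minus day 0 values were 0.12 and -0.013. That difference in response did not pass in limma (adjusted p = 0.81 for the probe set with the larger value). FRI(Sf-2)-FLC(Col) already lay below the other lines on day 0, at 10.50 against 11.24 to 11.64 and at 10.28 against 10.93 to 11.25. On day 4 it lay within their range, at 10.62 against 10.17 to 10.67 and at 10.27 against 9.87 to 10.39. COR15B, which encodes a chloroplast protein of freezing tolerance, measured -1.06 ± 0.36 without passing (limma adjusted p = 0.064).

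The larger step of COR47 was the first. It had fallen by 0.74 and 0.73 by day 2 (limma adjusted p = 0.00328 and 0.00157), when OSM34 measured -0.14 ± 0.21. Both COR47 calls held in all 19 alternative settings, whereas the KIN2 calls held in 14 and 16 of them. Between days 2 and 4 COR47 measured -0.34 and -0.37, lower in all 4 genotypes on both probe sets, without passing (limma adjusted p = 0.169 and 0.095), when OSM34 measured -1.32. The difference in timing was not tested.

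Other small cysteine-rich and antimicrobial proteins gave 1 rise and 1 fall by day 4 among 5 tested probe sets, where 8.78% of all tested probe sets rose and 9.49% fell. The defensin gene LCR68 rose by 0.32 ± 0.093 (limma adjusted p = 0.03, held in 13 of 19 alternative settings). The class V chitinase gene ChiC fell by 0.47 (SE 0.087; limma adjusted p = 0.00236). Between days 2 and 4 ChiC fell by 0.45 (limma adjusted p = 0.0161, held in 15 of 18 alternative settings). Another chitinase gene, CHI, fell by 0.76 in that interval (SE 0.19; limma adjusted p = 0.0444), and the defensin gene LCR69 rose by 0.37 ± 0.094 (limma adjusted p = 0.0495). The share of all tested probe sets was 1.63% for rises and 2.72% for falls between days 2 and 4. The last 2 calls held in 7 and 4 of 19 alternative settings. The chitinases, like OSM34, were thus lower on day 4 than on day 2.

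The hormone lists could hardly be read on this array. Of 26 jasmonate genes 1 had a probe set, the defensin gene LCR67 (PDF1.1), and at 2.70 to 3.23 it was not tested. None of the 10 salicylate and pathogenesis-related genes had a probe set of its own. Whether the THI2.1 increase went with other jasmonate-responsive genes was therefore not measured.

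The course of each member over the 12 arrays was compared with those of 249 named probe sets whose SD over the arrays was at least 0.3. THI2.1 (mean of its probe sets) was most like AT2G33850 (Pearson r = 0.959), AT4G29700 (0.931), AT4G28780 (0.924), AT2G43530 (0.910) and AT1G62500 (0.905), and most unlike AT2G30930 (-0.947), AT4G37520 (-0.942) and AT4G34600 (-0.926). The steps of AT2G33850 were 0.62 by day 2 and 1.09 by day 4, well short of those of THI2.1. ATLP-1 was most like AT4G32480 (0.962), AT1G62500 (0.961), AT4G27450 (0.940), AT2G30150 (0.933) and AT2G03550 (0.930), and most unlike MSRB5 (-0.968), AT2G29310 (-0.967) and AT2G25450 (-0.964). MSRB5, a methionine sulfoxide reductase gene, differed by -3.49 between day 4 and day 0. AT1G62500 was on the lists of both increasing members.

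THI2.2 was most like AT2G29340 (Pearson r = 0.911), AT4G12890 (0.910), AT2G04100 (0.894), AT2G31790 (0.882) and AT1G09310 (0.870), and most unlike AT4G15430 (-0.837) and AT2G22420 (-0.820 on both of its probe sets). OSM34 was most like AT2G38390 (0.977), AT4G38080 (0.955), AT2G38380 (0.894), AT4G37520 (0.865) and AT2G31790 (0.860), and most unlike AT2G22420 (-0.802), the THI2.1 probe set 14657_s_at (-0.787) and AT4G17260 (-0.779). AT2G38390 and AT2G38380 are direct neighbours among protein-coding genes. Like OSM34, AT2G38390 and AT4G38080 changed little by day 2, by -0.12 and 0.02, and then differed by -1.14 and -0.85 between days 4 and 2. AT2G31790 was on the lists of both decreasing members. These values describe 12 arrays that share days and genotypes.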

How the data were processed

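The deposited table holds 1 value per probe set and array, on a log2 scale as read from the deposited values (2.12 to 13.18), since no header or label names the scale. The normalization applied by the authors is not stated in the sources used here. Array medians differed by at most 0.058, and no scaling was added. The number of arrays limits the precision: each genotype and day holds 1 array, and nothing says that arrays are independent cultures, so the spread is what an additive model leaves.

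Of 8297 probe sets, 50 were controls; among the remaining 8247 the platform annotation named a single gene for 3794, several genes for 70 and none for 4383, and 3784 were found in the RefSeq table of assembly TAIR10.1. No coordinates are printed, since the files name no build. The 6185 probe sets with a mean above the 25th percentile (3.56) entered linear models in limma 3.58.1 under R 4.3.3 (additive in genotype and day, eBayes with a trend, 6 residual and 5.93 prior degrees of freedom; 4 and 6.36 in the second model), two-sided, with Benjamini-Hochberg adjustment and a threshold of 0.05. The fit was tested on simulated data.

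The members and lists were chosen with earlier results of these data known. Named were all member probe sets, all family relatives, the called list genes (up to 5 per list and direction), and per member the 5 most like and 3 least like of the probe sets with 1 gene. As alternatives, arrays were quantile-normalized, centred on their medians or weighted, the filter was dropped or set at the 50th percentile, the trend was dropped or made robust, only the 6 arrays of 2 genotypes were fitted, and each array was left out in turn.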

Additional observations from a re-analysis of the deposited data

How the results depend on the processing

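The fitted day differences of the 6 member probe sets moved by less than the spread between genotypes (1 SD, n = 4) in every alternative run, apart from 14656_i_at between days 4 and 2, which ranged from -0.21 to -0.065 when single arrays were left out (-0.21 without fri(Col)-FLC(Col) day 4 and -0.065 without FRI(Sf-2)-flc-3 day 4). The settings of the filter and the trend leave these differences unchanged, so those runs could not move them. The spread was also a wide limit, at 0.64 for OSM34 between day 2 and day 0 and 1.09 for 14657_s_at between days 4 and 2. The value of OSM34 between day 2 and day 0, -0.14, ranged from -0.33 to 0.05 over all settings, so its sign is not settled. Between day 4 and day 0, 17012_at ranged from 2.88 to 3.53, THI2.2 from -1.45 to -1.03, ATLP-1 from 0.65 to 0.78 and OSM34 from -1.65 to -1.27. The count of member probe sets called in limma was 0 of 6 in every genotype comparison and became 1, THI2.2 each time, with array weights for FRI(Sf-2)-FLC(Col) against the mean of the other genotypes and against fri(Col)-FLC(Col). Leaving out single arrays gave 0 to 1 in both comparisons, with 1 only without FRI(Sf-2)-FLC(Col) day 4; the cause was not tested. The thaumatin-like relatives that rose by day 4 numbered 3, and 1 to 3 when single arrays were left out, with 1 without the day 0 or day 4 array of fri(Col)-FLC(Col), fri(Col)-flc-3 or FRI(Sf-2)-FLC(Col). All 4 rises among the list genes became 1 without the day 0 array of any of these 3 genotypes or without fri(Col)-FLC(Col) day 4. With the 50th percentile filter 14656_i_at and OSM34 were not tested, and the second model could not be fitted without the day 0 or day 4 array of FRI(Sf-2)-FLC(Col). Day differences are paired within genotype by the additive model, and no block by replicate number could be added, since each genotype and day holds 1 array. On day 4 OSM34 lay close to the limit for low values, which is a filter setting and not a measured detection limit. Whether signal this low limits the decrease that can be measured was not tested.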
